A study of Homo sapiens with 10 samples.

Results

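After 6 Gy of ionizing radiation, K562 cells carried 528 long stretches of chromatin in which γH2AX stood above untreated H2AX chromatin without interruption for 100 kb or more at 1 h of recovery. A domain was defined as a run of at least 10 adjacent 10-kb windows in which the log2 ratio of γH2AX to H2AX exceeded 0.5 (1.41-fold) in both 1 h libraries. The 528 domains held 7396 of the 260555 eligible autosomal windows (2.84%) and spanned 73.96 Mb. By the same window criterion 15.0% of all eligible windows were raised, in 16045 runs of any length, and the domains held 18.9% of the raised windows. The 1 h γH2AX and K562 H2AX values therefore chose the domains, so those values are given below as a description with no test.

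When a DNA double-strand break forms, kinases of the damage response phosphorylate the histone variant H2AX near its carboxyl terminus. The phosphorylated form, γH2AX, spreads along the chromatin on both sides of the break, gathers repair factors and is removed as repair proceeds. H3K27me3, trimethylated lysine 27 of histone H3, is written by the Polycomb complex PRC2 and marks broad stretches of silent chromatin. CUT&RUN maps such marks by letting an antibody direct a nuclease to chromatin, so that the DNA around the bound protein is released and sequenced.

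The series held 10 libraries from 2 human lines, the erythroleukaemia line K562 and the liver carcinoma line HepG2, and was titled as a study of transcription and the recognition of radiation-induced breaks. The irradiated groups received 6 Gy from a cobalt source. They were K562 γH2AX after 1 h (n = 2) and after 24 h (n = 2), HepG2 γH2AX after 1 h (n = 1) and K562 H3K27me3 after 1 h (n = 1). The untreated groups were K562 H2AX (n = 2) and HepG2 H2AX (n = 2). The labels named an antibody against histone H4 for the H2AX libraries, so they were read as untreated chromatin whichever histone was bound, and the ratio to them mixes antibody and irradiation. No genotype, transgene or drug was labelled, and the labels did not say whether replicates came from separate cultures. CUT&RUN of histone marks does not measure the RNA or protein markers of a cell type, so the identity of the lines was taken from the labels.

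Mean depth per base was 1.43 and 1.77 in the K562 1 h γH2AX libraries, 0.324 and 0.588 at 24 h, 0.518 in HepG2 γH2AX and 1.09 in H3K27me3, against 0.667 and 0.666 in the untreated K562 libraries and 0.620 and 0.637 in the untreated HepG2 ones. Depth in thinly covered bins came in steps of 60 bp in the 1 h K562 libraries, H3K27me3 included, and in steps of 41 bp in the other 7. Read length therefore coincided with the group, and its part in the 1 h ratios was not tested. K562 24 h replicate 1 stood apart from every other library. In the domains 96.4% of its 1-kb bins were at exactly 0, against 36.8% over the autosomes, whereas K562 24 h replicate 2 had 0.599% of its domain bins at 0, against 2.48% over the autosomes. Every 24 h ratio below is from replicate 2 alone, and levels of replicate 1 are given only for the median domain and some named domains. Levels are depths divided by the mean of the track, and ratios carry a pseudocount of 0.05 on that scale, which understates changes near 0.

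The domains were mostly short members of a long-tailed distribution. Their median length was 120 kb, the quartiles were 110 and 150 kb, and the longest measured 440 kb. The minimum of 10 windows was met exactly by 117 domains, while 60 held at least 20 windows, 10 at least 30 and 3 at least 40. Raised windows outside the domains lay in 15517 shorter runs with 31715 windows, 9133 of these being single windows. There was no step in the data at the minimum length. In the 117 domains of 10 windows the median log2 ratio was 0.94 in 1 h replicate 1 and 1.10 in replicate 2, and in the 147 runs of 9 windows it was 0.90 and 1.06. The windows just inside the threshold had a log2 ratio of 0.50 in each library, and the eligible windows that ended the runs had medians of 0.32 and 0.34. Of the 1048 eligible ending windows, 569 were under the threshold in both libraries, 305 in replicate 1 only and 174 in replicate 2 only.

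Domains lay far apart for the most part, with a median gap of 2815 kb over the 506 neighbouring pairs of the same chromosome. In 16 pairs, however, a single 10-kb window separated the neighbours, and 52 pairs lay within 100 kb. The boundary between such neighbours depends on that window. Examples on hg19 are chr6:161410001-161590000 and chr6:161600001-161740000, and likewise chr13:67380001-67590000 and chr13:67600001-67720000.

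Coverage by domains differed between chromosomes. Chromosome 17 had 33 domains over 6.48% of its eligible windows, chromosome 14 had 27 over 4.12%, chromosome 6 had 43 over 4.01% and chromosome 1 had 54 over 3.50%. At the other end, chromosome 18 had 10 domains over 1.57%, and chromosome 19 had a single domain, chr19:39820001-39920000, over 0.182%. On chromosome 19, 11.2% of eligible windows met the criterion, under the 15.0% of all autosomes and the 23.5% of chromosome 17. Of the raised windows of chromosome 19, 1.62% fell in a domain, against 27.6% of those of chromosome 17. On chromosome 22, 20.4% of windows were raised and 5 domains covered 2.24%.

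**Figure D1:**
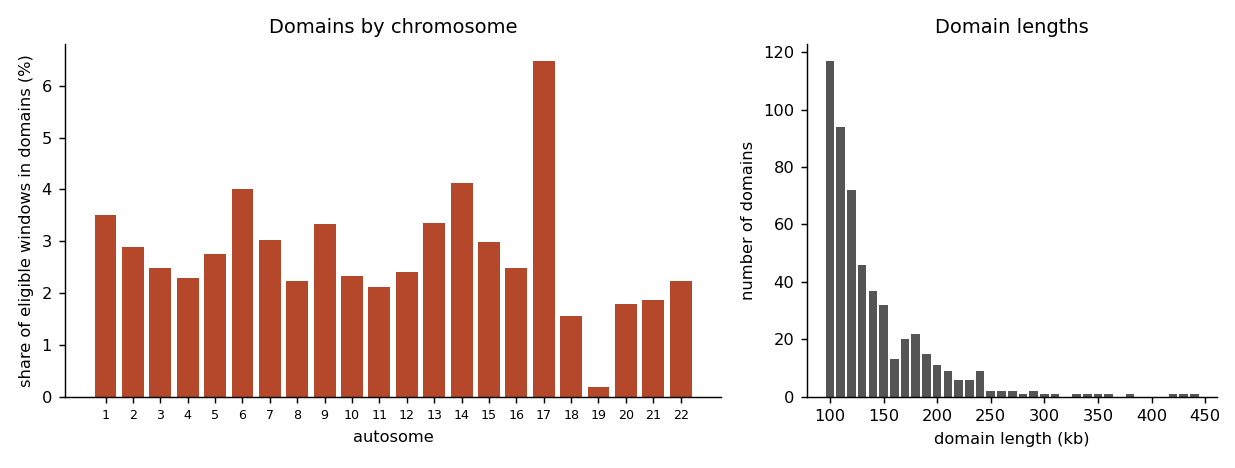
Share of eligible 10-kb windows lying in a domain on each autosome, in percent (bars, left), and the number of domains by length in kb (bars, right). Chromosome 17 reaches 6.48% and chromosome 19 only 0.182%, and most domains lie near the 100-kb minimum, with a tail to 440 kb.

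In the median domain the 1 h γH2AX level was 2.58 times the track mean in replicate 1 and 2.90 times in replicate 2. Over 26198 autosomal tiles of 100 kb, used throughout as the background at a similar scale, these medians were 0.850 and 0.893. The domain log2 ratio to H2AX ran from 0.63 to 1.63 with a median of 0.93 in replicate 1, and from 0.66 to 2.24 with a median of 1.08 in replicate 2. Replicate 2 was the higher by a mean of 0.17, and the difference between replicates had an SD of 0.14 over domains. Untreated K562 H2AX itself was above the genome in the domains, with a median level of 1.31, against 0.968 over tiles.

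The strongest domains by the mean 1 h ratio were on chromosomes 17, 6 and 12. At chr17:27400001-27500000 the 1 h γH2AX levels were 3.06 and 4.71, against 1.03 and 0.877 in K562 H2AX. That gave log2 ratios of 1.63 and 2.24. The 180-kb domain chr6:161410001-161590000 reached 4.61 and 4.81 at 1 h, against 1.61 and 1.59 in K562 H2AX. The other 3 of the top 5 were chr17:25870001-25980000 (log2 ratios 1.37 and 1.79), chr12:124830001-125060000 (1.20 and 1.68) and chr17:35760001-36000000 (1.32 and 1.53).

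**Figure D2:**
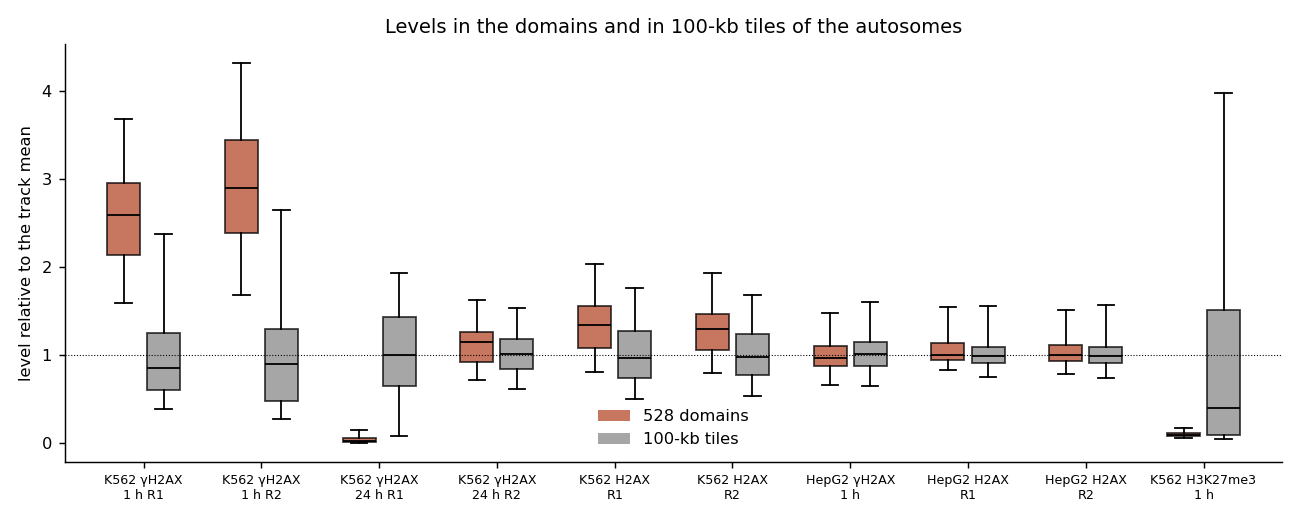
Levels relative to the track mean in each of the 10 libraries, for the 528 domains and for the 26198 autosomal 100-kb tiles. The 1 h γH2AX libraries stand high in the domains (medians 2.58 and 2.90), H3K27me3 stands low (0.0893), and the HepG2 and K562 24 h replicate 2 medians lie near 1.

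The 1 h peaks that the authors deposited come from the same libraries that chose the domains. Their density in the domains is therefore a description. Of 41947 peaks in 1 h replicate 1, 9071 (21.6%) lay in domains, and of 46072 in replicate 2, 9667 (21.0%) did. The median domain held 16 and 17 peaks, which covered 16.5% and 24.6% of the domain length, against 2.0% and 3.01% of the eligible autosomes. In each library 8 domains held no peak at all. Peaks in domains had the median fold of all peaks. In the authors' peak lists the median fold was 1.78 in domains and 1.78 over all peaks in replicate 1, and 1.76 and 1.76 in replicate 2. The longest domain held 71 and 70 peaks, while the 380-kb domain on chromosome 7 held 17 and 29. In the lists of the libraries the rule did not use, 1 of 8 peaks of K562 24 h replicate 1, 0 of 13 peaks of K562 24 h replicate 2 and 0 of 170 peaks of HepG2 lay in a domain. The domains held 2.84% of the eligible windows, and the autosomal HepG2 peaks covered 0.00055% of the eligible autosomes. The 24 h and HepG2 lists are short and in the narrow peak layout, unlike the broad layout of the K562 1 h lists. Their counts in domains are therefore not read as a result. The control behind the deposited folds was not given in the sources used here.

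In HepG2 cells given the same dose, the domains were not raised at 1 h and lay more often below H2AX than tiles did. The median domain level was 0.968 in HepG2 γH2AX and 0.998 in HepG2 H2AX, and the log2 ratio had a median of −0.08, with a range of −0.55 to 0.40. Over tiles the median was 0.0044 and the quartiles were −0.13 and 0.12. The tile quartiles of the K562 1 h ratio were −0.61 and 0.30 in replicate 1, and −1.02 and 0.45 in replicate 2. The HepG2 ratio thus varied less over the whole genome than the K562 1 h ratios did. Whether this library could have shown a rise in the domains was not tested. HepG2 γH2AX exceeded the mean of the HepG2 H2AX libraries in 146 of 528 domains (27.7%), against 51.0% of tiles. It was below both H2AX libraries in 346 domains (tiles 42.4%), above both in 116 (tiles 44.2%) and between them in 66. No domain was past a log2 ratio of 0.5 in HepG2, which 0.0191% of tiles were. The difference between the HepG2 H2AX replicates had an SD of 0.08 over domains, which describes single domains and not the median. Leaving out HepG2 H2AX replicate 1 or 2 gave medians of −0.082 and −0.090. HepG2 γH2AX had a single library, so its own spread could not be measured.

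The 5 domains with the highest HepG2 ratio were chr4:127750001-127880000, chr13:66600001-66710000, chr13:61030001-61130000, chr1:78240001-78340000 and chr4:23210001-23320000. At the first of these the HepG2 γH2AX level was 1.16, against 0.933 and 0.808 in HepG2 H2AX, a log2 ratio of 0.40. The second had 1.24, against 0.987 and 0.985, a log2 ratio of 0.32. In the remaining 3 the log2 ratio was 0.28, 0.27 and 0.25. The lowest were chr7:73870001-73970000 and chr21:45280001-45400000, each with a log2 ratio of −0.55. In the chromosome 7 domain the level was 0.495 in HepG2 γH2AX, against 0.780 and 0.718 in HepG2 H2AX. In the chromosome 21 domain it was 0.544, against 0.836 and 0.803. The next lowest 3, chr16:89380001-89480000, chr2:27220001-27320000 and chr7:127540001-127670000, had log2 ratios of −0.52, −0.51 and −0.49. All 5 of these low domains were raised in both K562 1 h libraries by the rule.

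At 24 h of recovery most of the domains stood below H2AX in K562 replicate 2. The median domain level was 1.14 in K562 24 h replicate 2 and 1.31 in K562 H2AX, and the log2 ratio had a median of −0.21 with a range of −0.66 to 0.54. Over tiles the median was 0.04. The 24 h library exceeded the mean of K562 H2AX in 80 of 528 domains (15.2%), against 54.5% of tiles. It was below both H2AX libraries in 428 domains (tiles 42.5%), above both in 67 (tiles 51.3%) and between them in 33. A single domain was past a log2 ratio of 0.5, against 2.04% of tiles. Low ratios were also found just outside the rule. The 117 domains of 10 windows had median log2 ratios of −0.20 at 24 h and −0.08 in HepG2, and the 147 raised runs of 9 windows had −0.23 and −0.10. By window, the 24 h median was −0.21 in domains, against −0.12 in raised windows of shorter runs and 0.05 in the other eligible windows. The 24 h ratio also ran lower where K562 H2AX, its divisor, was higher, with Spearman's rho of −0.386 over domains and −0.627 over tiles, and K562 H2AX was high in the domains. The HepG2 ratio, which shares no library with K562 H2AX, had a rho with it of −0.273 over domains and −0.516 over tiles. These are descriptions over regions measured in the same libraries. In K562 24 h replicate 1 the median domain level was 0.0204, against 1.00 over tiles, and 473 domains were below 0.1.

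The 24 h ratio shares its K562 H2AX libraries with the rule that chose the domains. When the domains were chosen with a single H2AX library and 24 h replicate 2 was divided by the other, the median log2 ratio was −0.17 over 449 domains and −0.27 over 525 domains, and 19.4% and 11.4% of them were above 0.

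Of the 5 domains highest at 24 h, 4 were on chromosomes 13 and 4, and K562 H2AX was below its track mean in all 5. At chr13:66600001-66710000 the level was 0.642 in K562 24 h replicate 2, against 0.376 and 0.477 in K562 H2AX, a log2 ratio of 0.54. In K562 24 h replicate 1 its level was 0.773, and the levels of the other 4 ran from 0.0444 to 0.543. The neighbours chr13:67600001-67720000 and chr13:67380001-67590000 had log2 ratios of 0.47 and 0.43, and chr4:23210001-23320000 had 0.41. The fifth, chr1:198610001-198730000, had a level of 1.30 in K562 24 h replicate 2, against 0.937 and 0.973 in K562 H2AX, a log2 ratio of 0.42. The lowest was chr17:35310001-35410000, with 0.747 in K562 24 h replicate 2, against 1.21 and 1.20 in K562 H2AX, a log2 ratio of −0.66. The next lowest were chr14:69340001-69450000 (−0.62), chr16:67730001-67840000 (−0.62), chr16:70710001-70830000 (−0.60) and chr22:24420001-24580000 (−0.59).

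Domains that read low at 24 h tended to be those that read low in HepG2. Both log2 ratios were below 0 in 364 domains and above 0 in 62. In 84 domains HepG2 alone was above 0, and in 18 the 24 h library alone was. Over the 528 domains Spearman's rho between the ratios was 0.689 and Pearson's r was 0.693. The ratios have no library in common, but the same relation was present outside the domains, with a rho of 0.732 over tiles. It is a description over regions measured in the same libraries, and copy number and base composition were not tested. By chromosome, the domains of chromosome 17 had a median log2 ratio of −0.25 in HepG2 and −0.43 at 24 h, with 1 of 33 above 0 in HepG2 and 0 of 33 at 24 h. Those of chromosome 4 had medians of 0.08 in HepG2 and −0.0035 at 24 h, with 19 and 14 of 29 above 0. Chromosome 13 had 0.01 and −0.06, with 11 and 8 of 20 above 0.

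**Figure D3:**
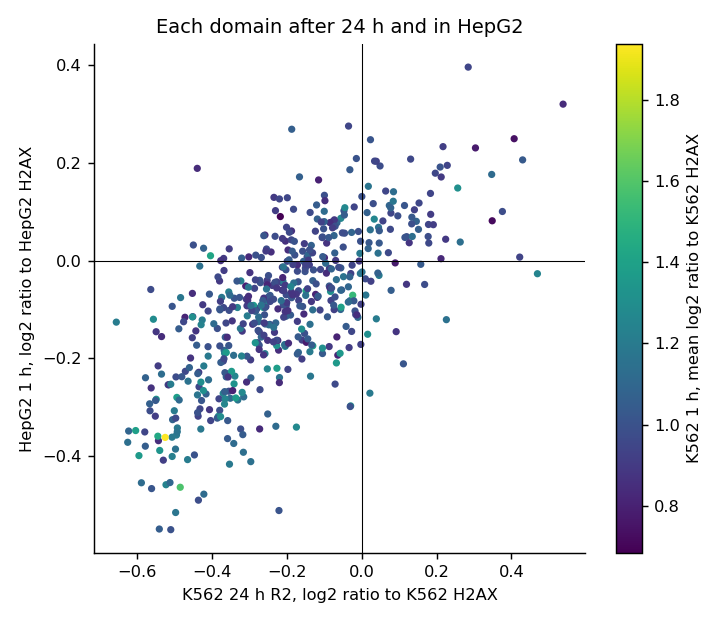
Each of the 528 domains as a point, with the log2 ratio of K562 24 h replicate 2 to K562 H2AX across and that of HepG2 1 h γH2AX to HepG2 H2AX up. Most points (364) lie below 0 on both axes, and no point passes 0.5 in HepG2.

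Single 10-kb windows could not carry these comparisons to a corrected test. In limma with Benjamini-Hochberg adjustment over all 274222 windows, 0 of the 7396 domain windows were called in HepG2 γH2AX over HepG2 H2AX, where 0.00% of all windows were called, and 0 in K562 24 h replicate 2 over K562 H2AX, where it was also 0.00%. At an unadjusted p under 0.05, 764 domain windows (10.3%) passed in HepG2, with 117 higher and 647 lower, against 7.90% of all windows (2.58% higher, 5.31% lower). For K562 24 h replicate 2 it was 1201 (16.2%), with 86 higher and 1115 lower, against 13.4% of all windows (6.90% higher, 6.46% lower). In simulated data with 200 changed windows the fit recovered 0 at log2 changes of 0.5, 1 and 2, and at 3 it recovered 68% for HepG2 and 62.5% for 24 h. The simulation changed 200 windows, whereas the domains hold 7396, so recovery of a change shared by all domain windows was not measured. Counts of 0 were therefore not read as a limit on changes of the size seen in the domains. The median standard error of the log2 ratio in a domain window was 0.24.

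Those counts depended on which libraries shared the estimate of spread. With only the libraries compared in the limma fit, 321 domain windows were called in HepG2 (39 higher, 282 lower, 4.34%, against 3.87% of all windows) and 1333 at 24 h (66 higher, 1267 lower, 18.0%, against 13.5%). Without K562 1 h replicate 1 the counts were 398 in HepG2 (36 higher, 362 lower, 5.38%, against 4.47%) and 959 at 24 h (47 higher, 912 lower, 13.0%, against 10.9%). Without K562 1 h replicate 2 they were 378 (36 higher, 342 lower, 5.11%, against 4.42%) and 912 (46 higher, 866 lower, 12.3%, against 10.7%). In these fits the lean toward lower calls was not confined to the domains, although lower calls made up a larger share of the calls inside them. Over all windows, the fits gave 3471 higher and 7146 lower calls in HepG2 and 16137 higher and 20843 lower at 24 h with only the libraries compared. Without K562 1 h replicate 1 they gave 2331 and 9929 in HepG2 and 13564 and 16456 at 24 h. Without K562 1 h replicate 2 they gave 2291 and 9833 in HepG2 and 13268 and 16140 at 24 h.

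H3K27me3, from a library the rule did not use, was low in nearly all domains. Its median level was 0.0893 in domains, against 0.394 over tiles, and 41.6% of 1-kb bins in domains were at 0, against 26.0% over the autosomes. The level was below 0.2 in 515 of 528 domains (97.5%), against 40.3% of tiles. With a single library and about 209 reads in the median domain, these levels have no replicate check. Raised windows in shorter runs were as low, the median window level being 0.0849 in domains and 0.0847 in raised windows of shorter runs, against 0.376 in all other windows.

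The exceptions were few. At chr1:236550001-236650000 H3K27me3 reached 2.31, above its track mean, in a domain with 1 h γH2AX log2 ratios of 1.10 and 1.29. The next were chr6:147980001-148100000 with 0.619, chr6:161410001-161590000 with 0.473, chr2:122090001-122230000 with 0.311 and chr6:161600001-161740000 with 0.303. The pair on chromosome 6 that a single window separates thus appears among them, and its first member is also among the 5 strongest domains at 1 h.

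The edges of the domains were compared with the 100 kb on each side, for the 527 domains with windows there. Inside the domains the median 1 h log2 ratio was 0.93 and 1.08, against 0.32 and 0.31 in the flanks, a drop that the rule builds in. The median H3K27me3 level was 0.0893 inside and 0.657 in the flanks, and it was lower inside in 511 domains (97.0%), against 56.6% of tiles set against their own flanks. The HepG2 γH2AX ratio showed no step, with −0.0837 inside and −0.0906 in the flanks, and was higher inside in 259 domains (49.1%), against 49.6% of tiles. HepG2 H2AX was level across the edge as well, at 0.998 and 0.993, higher inside in 52.9% of domains and in 50.6% of tiles. The ratio of K562 24 h replicate 2 was −0.21 inside and −0.16 in the flanks, and was higher inside in 154 domains (29.2%), against 50.0% of tiles. The 24 h level alone was 1.14 inside and 1.11 in the flanks, higher inside in 369 domains (70.0%), against 49.7% of tiles. Untreated K562 H2AX was 1.31 inside and 1.22 in the flanks, higher inside in 444 domains (84.3%), against 48.6% of tiles, and it divides the 24 h ratio.

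Across the average edge the 1 h ratio dropped within 10 kb, a step that the rule builds in. In the first window inside the ratio averaged 0.88 and 1.01, against 0.23 and 0.21 in the first window outside. At 195 kb outside it averaged −0.14 and −0.37. H3K27me3 averaged 0.129 in the first window inside, against 0.483 in the first outside and 1.45 at 195 kb outside. HepG2 γH2AX averaged −0.11 in both of these windows and at 195 kb outside. K562 24 h replicate 2 averaged −0.18 in the first window inside, against −0.20 in the first outside and −0.12 at 195 kb outside.

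Edges were divided by the H3K27me3 level of the 100 kb beyond them. Of 1050 edges, 342 (32.6%) faced a level of at least 1, 362 (34.5%) a level under 0.2 and 346 (33.0%) a level between. Beyond the edges with high H3K27me3 the median 1 h log2 ratio was −0.39 and −0.71, below untreated H2AX. Beyond those with low H3K27me3 it was 0.67 and 0.78, so γH2AX stayed raised past the edge, in runs broken by windows that missed the threshold. In the first group H3K27me3 averaged 0.160 in the first window inside, against 0.983 in the first outside and 3.01 at 95 kb outside. The same edges had a mean 1 h ratio of 0.94 and 1.06 in the first window inside, against 0.07 and −0.06 in the first outside. The rule builds in that step. At 95 kb outside the mean 1 h ratio was −0.65 and −1.06.

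HepG2 γH2AX differed little between the kinds of edge, with a median log2 ratio of −0.10 beyond edges with high H3K27me3 and −0.06 beyond those with low. The HepG2 ratio still ran lower where K562 H3K27me3 was higher, with Spearman's rho of −0.304 over domains and −0.532 over tiles. Of the 523 domains with both edges measured, 75 had high H3K27me3 beyond both edges, 190 beyond a single edge and 258 beyond none. Low H3K27me3 lay beyond both edges of another 75. The kinds were defined by H3K27me3 in its only library, and 1 h γH2AX and H3K27me3 share the 60-bp steps. The part of that difference in these values was not tested.

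**Figure D4:**
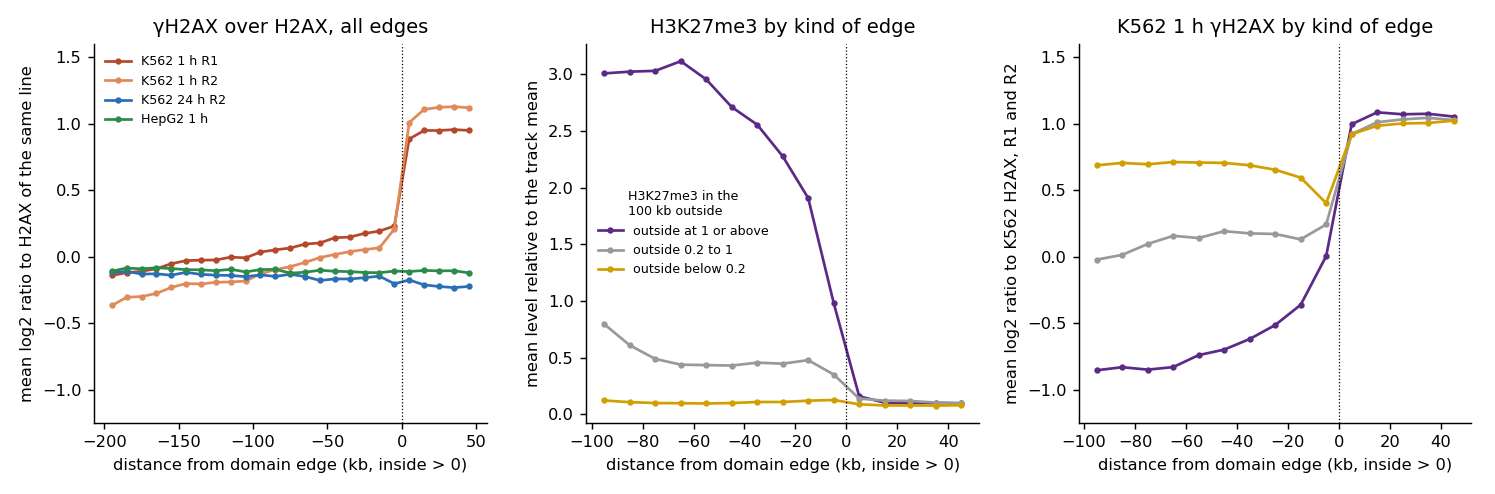
Means over domain edges by distance from the edge in kb, with the inside of the domain above 0: the log2 ratio of γH2AX to H2AX at all edges (left), the H3K27me3 level relative to its track mean by kind of edge (middle) and the K562 1 h log2 ratio by kind of edge (right). The 1 h libraries stand at 0.88 and 1.01 just inside the edge, against 0.23 and 0.21 just outside, a step that the rule builds in. The HepG2 line stays near −0.11, and H3K27me3 climbs to 3.01 at 95 kb beyond the edges of its high kind.

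The longest domain, chr1:61490001-61930000, spanned 440 kb. Its level was 2.74 and 3.02 in K562 γH2AX at 1 h, against 1.27 and 1.26 in K562 H2AX. At 24 h it was 0.0236 in replicate 1 and 1.22 in replicate 2. HepG2 γH2AX had 1.01, against 1.05 and 1.01 in HepG2 H2AX. Only the 1 h γH2AX libraries stood clearly above untreated chromatin here, as the rule requires of them. The sides of the domain differed. In the 100 kb before the start, 1 h γH2AX averaged 1.56 and 1.64, against 1.09 and 1.05 in K562 H2AX, and H3K27me3 averaged 0.292. In the 100 kb beyond the end, 1 h γH2AX averaged 0.588 and 0.417, against 1.03 and 1.05 in K562 H2AX, and H3K27me3 averaged 3.07, with windows of up to 5.49. Inside the domain H3K27me3 was 0.104. At 24 h, replicate 1 averaged 0.323 before the start and 1.86 beyond the end, and replicate 2 averaged 1.17 and 1.04.

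The second longest, chr4:151180001-151610000, spanned 430 kb, and a single window parted it from its next neighbour. K562 γH2AX at 1 h had 2.36 and 2.39, against 1.15 and 1.13 in K562 H2AX, and 24 h replicate 2 had 1.16. HepG2 γH2AX had 1.05, against 1.01 and 1.04 in HepG2 H2AX. The log2 ratio was 0.02 at 24 h and 0.04 in HepG2, and H3K27me3 was 0.0683 inside. In the 100 kb before the start H3K27me3 averaged 2.80 and 1 h γH2AX 0.610 and 0.408, against 1.04 and 1.00 in K562 H2AX. Beyond the end H3K27me3 averaged 0.0687 and 1 h γH2AX stayed high at 2.36 and 2.68, against 1.33 and 1.29 in K562 H2AX.

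The third, chr6:15240001-15660000, spanned 420 kb and lay above the track mean in every γH2AX and H2AX library but K562 24 h replicate 1. K562 γH2AX at 1 h had 3.33 and 3.79, against 1.57 and 1.45 in K562 H2AX. At 24 h replicate 1 had 0.0039 and replicate 2 had 1.21. HepG2 γH2AX had 1.28, against 1.41 and 1.38 in HepG2 H2AX. The fourth, chr7:10450001-10830000, spanned 380 kb and was low in untreated K562. It had 1.91 and 2.07 at 1 h and 0.932 in 24 h replicate 2, against 0.748 and 0.796 in K562 H2AX. These gave log2 ratios of 1.25 and 1.37 at 1 h and 0.26 at 24 h, and the HepG2 ratio was 0.15.

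The other 6 of the 10 longest measured 300 to 360 kb. They included chr17:30910001-31270000, with a log2 ratio of −0.13 in HepG2 and −0.43 at 24 h, and chr6:157800001-158100000, with −0.19 and −0.37. At chr5:64780001-65120000 the ratios were 0.13 and −0.22, at chr6:101000001-101330000 they were 0.08 and 0.15, and at chr13:60430001-60740000 the HepG2 ratio was 0.04. The 24 h and HepG2 ratios thus lay on either side of 0 among the longest domains, all of which were within 0.5 of it. Genes were not assigned to the domains and no sequence is shown, because an hg19 annotation or genome was not used here.

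**Figure D5:**
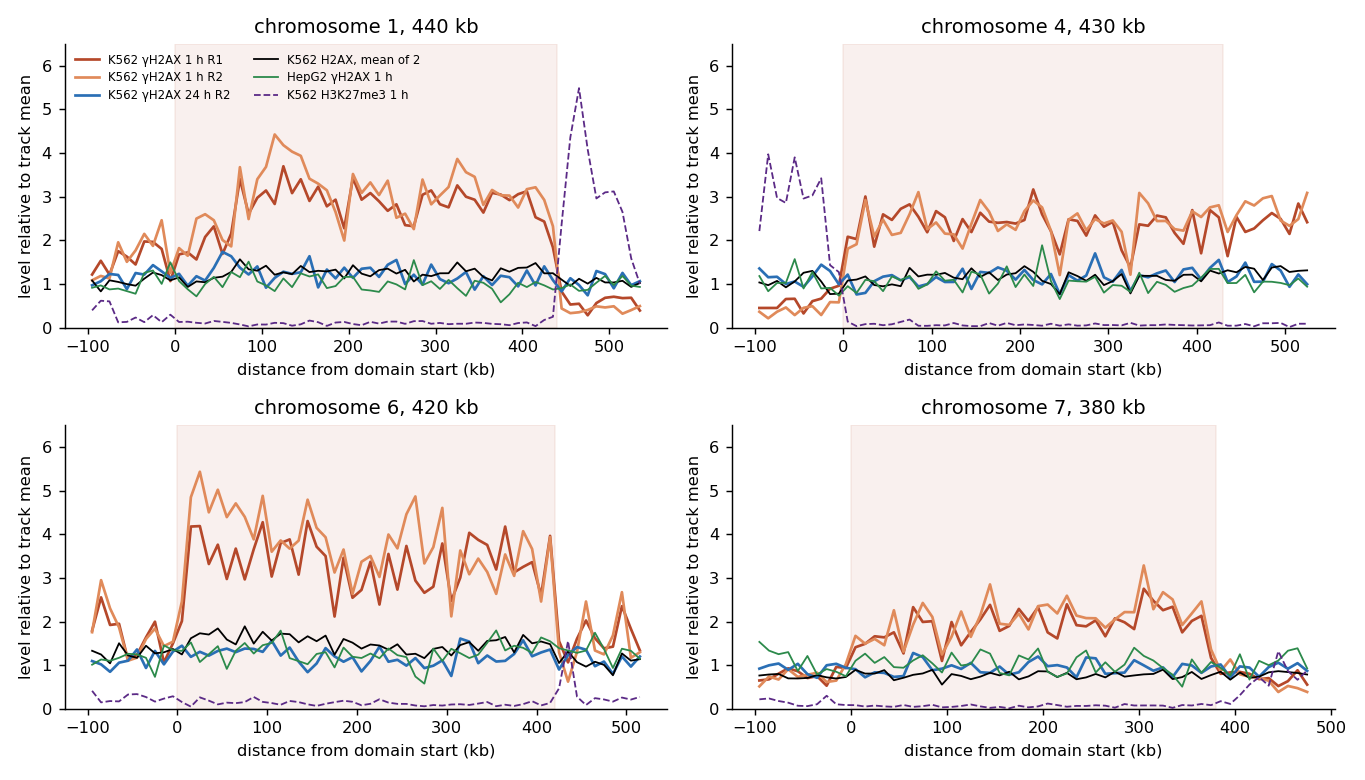
Levels relative to the track mean in 10-kb windows along the 4 longest domains (shaded), by distance from the domain start in kb, for K562 γH2AX at 1 h and 24 h (replicate 2), HepG2 γH2AX, the mean of the 2 K562 H2AX libraries and H3K27me3. As the rule requires, the K562 1 h lines stand above K562 H2AX throughout each shaded span. H3K27me3 is low there, and it reaches 5.49 beyond the end of the chromosome 1 domain.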

How the data were processed

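The tracks and peak lists of 10 CUT&RUN libraries from both lines were read as deposited, on hg19. Per the submitters' processing notes the tools included MACS2, SAMtools and BWA 0.7.12, with no settings given. The deposited signal tracks give coverage as mean depth per base in 1-kb bins, not scaled to library depth. The deposited peak lists, a list for each γH2AX library in the layout of MACS2, give a fold ratio, −log10 p-values and −log10 q-values. The fold alone was used, as the authors' value. Peaks of the K562 1 h libraries have the broad layout and the others the narrow layout.

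Bins were divided by their track's mean without chromosome Y and averaged into 10-kb windows with at least 5 bins. Windows with a mean K562 H2AX level of at least 0.25 were eligible. Log2 ratios used levels plus 0.05 and the mean of the line's 2 H2AX libraries. A domain's level is the mean over its windows. Tiles of 100 kb with at least 5 eligible windows were the background. Window tests used limma 3.58.1 in R 4.3.3 with group means, a trended prior variance and all libraries but K562 24 h replicate 1, Benjamini-Hochberg adjusted p under 0.05, and were tested on simulated data. A group with a single library was taken to vary like the others. Replicates are not labelled as separate cultures, and the p-values reflect only how far these libraries differ, which may be technical. By whole reads, the median domain held 7610 and 10660 reads at 1 h, 22 and 2067 at 24 h, 1591 in HepG2 γH2AX, 209 in H3K27me3, against 2713 and 2604 in untreated K562 and 1998 and 2054 in untreated HepG2.

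Named domains are the 10 longest, the 5 highest at 1 h, the 5 highest and 5 lowest in HepG2 and at 24 h, and the 5 highest in H3K27me3. The domains, the lists and this rule were chosen with earlier results of these data known. Gene lists were not counted, and no hg19 annotation was used here. Alternatives changed the threshold, run length, pseudocount, minimum, scaling and libraries.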

Additional observations from a re-analysis of the deposited data

Results flagged for a closer look

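Over the domains, the HepG2 1 h log2 ratio to HepG2 H2AX was lower than the K562 1 h log2 ratio to K562 H2AX by a median difference of −1.09, with a range of −2.30 to −0.49, and it was lower in all 528. The log2 ratio of K562 24 h replicate 2 was lower than that of K562 at 1 h by a median difference of −1.21, with a range of −2.46 to −0.30, and again in all 528. Each was picked out because the median ratio was below 0 in the first group and above 0 in K562 at 1 h. Single domains did not all show this, since 146 were above 0 in HepG2 and 80 at 24 h. Neither difference was tested. The K562 1 h side was fixed above 0.5 by the choice of the domains, so these differences describe the domains and show no independent effect.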

How the results depend on the processing

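The number and length of the domains depended on the rule. There were 288 domains over 38.76 Mb at a log2 threshold of 0.6, 114.02 Mb at 0.4, 870 domains with runs of at least 8 windows and 317 with at least 12. Median-of-ratios scaling gave 820 domains over 119.33 Mb, and bridging single failing windows gave 857 over 145.76 Mb. Leaving out a library in turn gave 449 to 982 domains over 60.42 to 146.15 Mb, the most without K562 1 h replicate 1. The other readouts were taken over the 528 domains. With median-of-ratios scaling the median log2 ratio was −0.077 in HepG2 and −0.245 at 24 h, and the median H3K27me3 level was 0.338, on a scale where that library's levels shift by 1.92 (log2). In the 60 domains of at least 20 windows, HepG2 was above H2AX in 20 and 24 h replicate 2 in 8, the HepG2 median was −0.074 and the H3K27me3 median was 0.0881. Leaving out an H2AX library gave HepG2 medians of −0.090 to −0.082. Choosing the domains with an H2AX library and dividing by the other gave 24 h medians of −0.166 and −0.271. Every median ratio stayed below 0 under these alternatives. Domain windows called by limma numbered 321 in HepG2 and 1333 at 24 h with only the libraries compared. Leaving out a library in turn gave 0 to 398 in HepG2 and 0 to 959 at 24 h. The cause of these shifts was not tested. With the replicate number as a block the counts were 0 and 0. The labels share only numbers, and the replicate differences correlated by 0.0175 between K562 1 h and HepG2 H2AX, 0.0495 between the 2 H2AX groups and 0.0678 between K562 1 h and K562 H2AX, so the numbers were not read as pairs. The median domain held 22 reads in K562 24 h replicate 1 and 209 in H3K27me3, the fewest of the libraries, so single-domain levels are least precise there.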
